A study of Mus musculus with 2 samples.

Results

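Annexins are cytosolic proteins that bind acidic phospholipids of cell membranes when calcium is present. The transcripts of 10 listed annexin genes, Anxa1 to Anxa9 and Anxa11, were read from the probe sets that the platform annotation gives to exactly 1 of them. Of the 10, 9 had such probe sets, 20 in all, among 18194 genes and 34958 probe sets assigned to a single gene. Anxa11 had only a probe set assigned to 3 genes and was given no value. The family was chosen by its signals on these same arrays, so its levels and ratios are given as a description.

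Each annexin combines a conserved calcium- and lipid-binding core with an N-terminal stretch of its own, and the N-terminal stretch carries most partner binding. In skin the family is known for membrane repair, for organising membrane and actin contacts, for restraint of inflammation by Anxa1, and for annexin proteins that are crosslinked into the cornified envelope.

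The cells came from skin tumours of mice given DMBA, a carcinogen, on postnatal days 23, 25 and 27. TPA, a tumour-promoting phorbol ester, was then applied 2 times a week for several weeks, and DMBA was given again 2 times at 7 weeks of age. Epithelial tumour cells positive for CD34 were sorted from tumours of the wild-type and of the K14CreER:Rosa-VEGF-164 genotype. In the latter, CreER, an inducible form of Cre driven by the keratin 14 promoter, is meant to switch on VEGF-164. Each genotype had 1 Affymetrix Mouse 430 2.0 array, so genotype, animal, tumour, sort and array cannot be told apart, and no test between genotypes was possible. The labels name a single mouse for each array and do not say how many tumours were taken.

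The deposited log2 signals gave a median signal of 22.6 for wild type and 17.3 on the array labelled VEGF. Background was set at the 90th percentile of 80 olfactory and vomeronasal receptor probe sets, at 19.8 and 11.3. Vegfa, the gene to be gained, was lower on the array labelled VEGF by both of its probe sets. The brighter Vegfa probe set had a signal of 804 for wild type and 397 on the array labelled VEGF, a log2 ratio of -1.02. The other had 302 for wild type and 127 on the array labelled VEGF, a log2 ratio of -1.26. Whether these probes detect RNA of the transgene is not known, so the directions below follow the label. Paired signals below are given in the order wild-type array, array labelled VEGF. Krt5 and Krt14, the basal keratins that mark epidermal cells, were bright on both arrays (8352 and 8990 for wild type, 7875 and 8571 on the array labelled VEGF). In all, 6 of 6 keratinocyte markers lay above background on both arrays. By the probe set with the highest mean signal, their log2 ratios were above 0 for 2 and below 0 for 4. They ran from -0.77 for Trp63 to 0.80 for Cd34, which encodes the antigen of the sort. Other probe sets above background on both arrays gave -1.16 for Epcam, against 0.25 by its brightest, and between -2.52 and -0.37 for Trp63. Those of Krt14 and Itga6 were also below 0.

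Promoter sequences from RefSeq (GRCm38.p6) are shown for Anxa8, which differed most between the arrays among the annexins with a window, and for Anxa1 and Anxa2, which differed less. Each run is the 250 bases before the start of the gene, 5′ to 3′ on the strand of the gene. Capitals mark matches, on either strand, to TGANTCA (the AP-1 element, which answers to phorbol esters), TATAAA (the TATA box) or GGGCGG (the GC box). The windows are chr14:34085729-34085978 on the plus strand for Anxa8, chr19:20390672-20390921 on the minus strand for Anxa1, and chr9:69453433-69453682 on the plus strand for Anxa2.
Anxa8: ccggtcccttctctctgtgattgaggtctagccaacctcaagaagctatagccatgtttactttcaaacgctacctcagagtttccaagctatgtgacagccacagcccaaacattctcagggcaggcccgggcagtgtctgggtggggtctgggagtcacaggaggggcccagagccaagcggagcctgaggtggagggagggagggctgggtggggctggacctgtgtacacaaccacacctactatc
Anxa1: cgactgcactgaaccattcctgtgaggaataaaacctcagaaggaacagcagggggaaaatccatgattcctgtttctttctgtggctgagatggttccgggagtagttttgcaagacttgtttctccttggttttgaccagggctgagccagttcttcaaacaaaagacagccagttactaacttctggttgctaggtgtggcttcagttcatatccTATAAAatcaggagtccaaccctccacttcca
Anxa2: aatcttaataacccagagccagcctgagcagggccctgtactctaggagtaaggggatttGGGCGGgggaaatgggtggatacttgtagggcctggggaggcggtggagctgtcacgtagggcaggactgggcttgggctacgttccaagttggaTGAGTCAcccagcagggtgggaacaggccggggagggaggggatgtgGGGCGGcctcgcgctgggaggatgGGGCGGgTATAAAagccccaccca

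The Anxa8 window held none of these motifs. The Anxa1 window held a TATA box whose first base lies 32 bases before the start. The Anxa2 window held an AP-1 element at 95 bases, a TATA box at 17 bases and 3 GC boxes, and no matches overlapped. Windows were matched for 8 of the 10 annexins, 11 windows in all, since Anxa4, Anxa7 and Anxa9 have a second start; Anxa3 and Anxa6 were not matched. An AP-1 element stood in 1 of the 11 windows, against 6.75% of 32851 windows of the same length. A TATA box stood in 2 of 11, against 12.4%, and a GC box in 4 of 11, against 32.7%. The Anxa7 windows overlap, and 1 GC box lies in both. A match is a run of letters and not a shown binding site.

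Among the annexins, Anxa3 and Anxa8 were at least 2-fold higher on the array labelled VEGF and no annexin was at least 2-fold lower. They were 2 of the 8 annexins above background on both arrays. Of the 12199 genes that had a fold or a bound, 472 (3.87%) were higher and 1041 (8.53%) lower by 2-fold or more. The share of higher genes among these was 31.2% as deposited, 51.1% after quantile and 52.8% after loess normalization, while the annexin counts were 2 higher and 0 lower under all 11 other settings tried. Because the annexins were chosen with these ratios known, nothing is read from this difference in shares. In sorted bulk cells, more cells of a type and more RNA per cell cannot be told apart.

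Anxa3 encodes an annexin known from neutrophil granules and also made by epithelia. Its single probe set had a signal of 619 for wild type and 1876 on the array labelled VEGF. This is 3.03-fold higher, a log2 ratio of 1.60, the 112th highest among 11234 genes lying above background on both arrays. No second probe set was there to set beside it.

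Anxa8, an annexin of stratified epithelia first isolated as an anticoagulant protein, had 2 probe sets. The first, as the one with the highest mean signal is called here, had a signal of 749.8 for wild type and 1978 on the array labelled VEGF. The second, an _s_at set, whose probes may match more than 1 transcript, had 298 and 960.0. Both were higher on the array labelled VEGF, with log2 ratios of 1.40 (2.64-fold) and 1.69 (3.23-fold). Anxa8 ranked 158th of the 11234 genes. The only error these arrays hold is the disagreement between probe sets of a gene. Over 4887 genes with 2 or more probe sets above background, the SD of a single log2 ratio was 0.50, 0.42 and 0.32 in the lowest, middle and highest tertile of signal. The ratios of Anxa3 and Anxa8 were 4.97 and 4.35 times the SD of the highest tertile. That SD leaves out any spread between animals, tumours or sorts, and any error that the probe sets of a gene share. For Anxa3, with a single probe set, it is borrowed from other genes. As the annexins were chosen with these ratios known, the multiples give a size only and are no test.

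**Figure D1:**
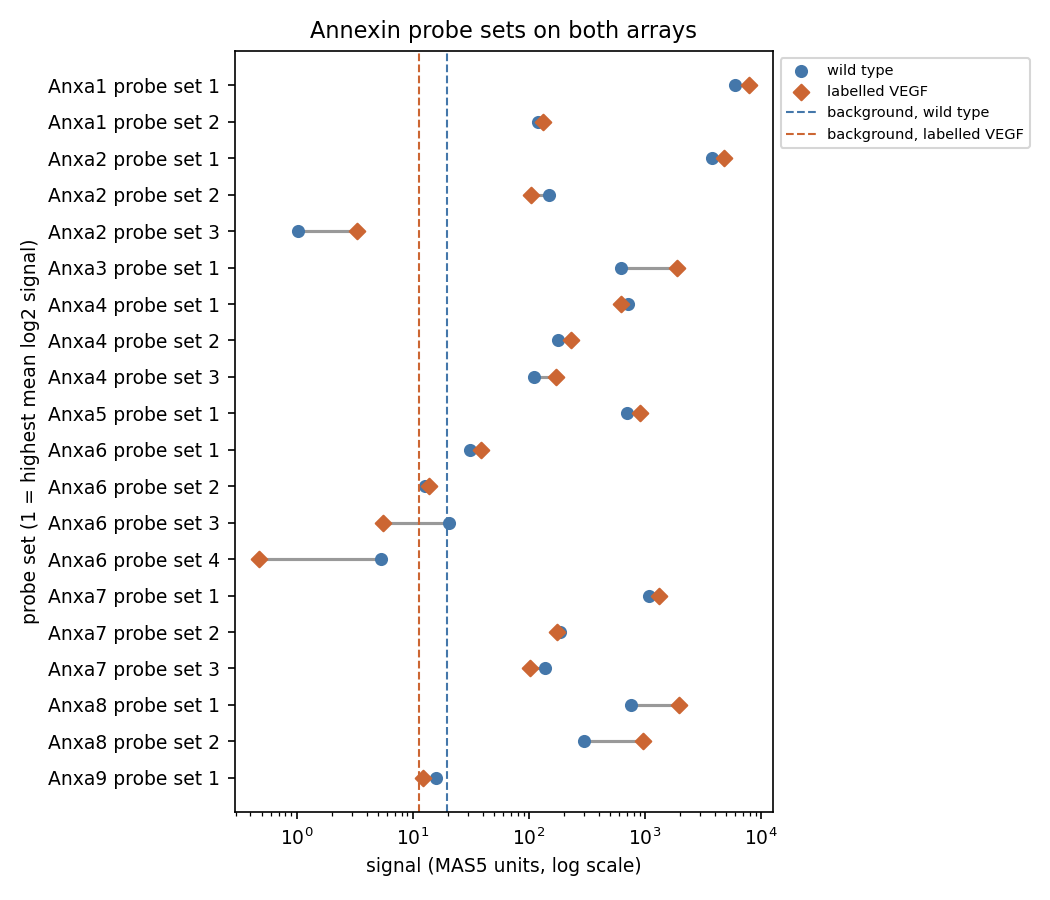
Signal of each of the 20 annexin probe sets (log axis) on the wild-type array (circles) and the array labelled VEGF (diamonds), with the background level of each array as a dashed line. The points of Anxa3 and of both Anxa8 probe sets lie far apart (619 and 1876 for Anxa3). Those of Anxa1 and Anxa5, and the Anxa2 pairs that clear both dashed lines, lie closer together. Some pairs with a point under its dashed line are also wide. These include Anxa2 at 1.03 and 3.32, and Anxa6 at 20.5 and 5.49 and at 5.32 and 0.475.

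Markers of other cell types differed between the same arrays. The 6 fibroblast markers had a summed signal of 1119 for wild type and 2642 on the array labelled VEGF, with 5 and 6 of them above background. Pdgfra, which encodes the CD140a antigen stained in the sort, read 9.86 and 34.7, the first of these below background. Of the 5 fibroblast markers above background on both arrays, 4 had ratios above 0 and 1 below. The collagen gene Col1a2 was 2.91-fold higher, while Dcn read 91.3 and 72.3, a log2 ratio of -0.34. The 9 immune markers summed to 242 and 219, with 4 and 5 above background. Ptprc, which encodes CD45, read 14.4 and 17.3, and Itgam, an integrin gene of neutrophils and macrophages, read 4.84 and 4.20, below background on both arrays. The 5 endothelial markers summed to 78.8 and 118, and the 4 melanocyte markers to 276 and 129. The 4 platelet markers summed to 95.1 and 546, of which the platelet chemokine gene Ppbp alone read 6.71 and 480.3. The other platelet genes did not share that size of difference: Pf4 read 16.7 and 25.3, Itga2b 69.3 and 39.4 (log2 ratio -0.81), and Gp9 lay below background on both arrays. The keratinocyte markers summed to 26028 and 23110.2. The part of these cell types in the annexin ratios was not tested.

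Anxa1 and Anxa2, the annexins with the best known roles in epidermis, were less than 2-fold apart. Anxa1, a protein induced by glucocorticoids that restrains phospholipase A2 and signals through formyl peptide receptors, had a signal of 5916 for wild type and 7824 on the array labelled VEGF. Its log2 ratio was 0.40, or 1.25 times the SD between probe sets. A second Anxa1 probe set read 120.1 and 131, a log2 ratio of 0.13, so both were slightly higher on the array labelled VEGF.

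Anxa2, which pairs with S100a10 at the plasma membrane and helps to assemble plasminogen with its activator, had signals of 3789.7 and 4815 for wild type and the array labelled VEGF. The log2 ratio was 0.35, or 1.07 times the SD. A second probe set, an _x_at set, whose probes may cross-hybridise, went the other way with 149.8 and 105, a log2 ratio of -0.51. The remaining one read 1.03 and 3.32, below background on both arrays. The direction of Anxa2 therefore differed between its probe sets.

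Anxa5, a binder of phosphatidylserine used as a stain for dying cells, had 1 probe set, with 704 for wild type and 909 on the array labelled VEGF. Its log2 ratio of 0.37 was 1.15 times the SD. Anxa7, also called synexin, a partner of the calcium-binding protein sorcin, had 1085 and 1309 by its first probe set, a log2 ratio of 0.27. Its other probe sets read 187 and 174, and 138 and 103, with log2 ratios of -0.10 and -0.43. The first ratio was under the SD, and the other probe sets had the opposite sign.

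Anxa4, an annexin of epithelial membranes, was the annexin whose first probe set was lower on the array labelled VEGF. It had 720.1 for wild type and 624 on the array labelled VEGF, a log2 ratio of -0.21. The other probe sets read 179.7 and 230.1, and 110.2 and 169.9, with log2 ratios of 0.36 and 0.62. The first value lay within the SD between probe sets, and the others had the opposite sign, so these arrays give no settled direction for Anxa4.

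Anxa6, whose protein carries a duplicated annexin core, was near background. Its first probe set read 31.3 for wild type and 38.8 on the array labelled VEGF, a log2 ratio of 0.31, under the SD of 0.50 at this signal. A probe set above background on the wild-type array alone read 20.5 and 5.49, at least 1.81-fold lower, but with the wild-type background as floor on both arrays its log2 bound was only -0.05. The remaining probe sets read 12.8 and 13.9, and 5.32 and 0.475. Anxa9, a member whose calcium sites have degenerated, read 15.9 for wild type and 12.3 on the array labelled VEGF. It lay below background on the first and just above the lower background of the second, so no fold was given. Anxa10 and Anxa13, family genes outside the list, read at most 0.926 and 3.88 and lay below background on both arrays.

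**Figure D2:**
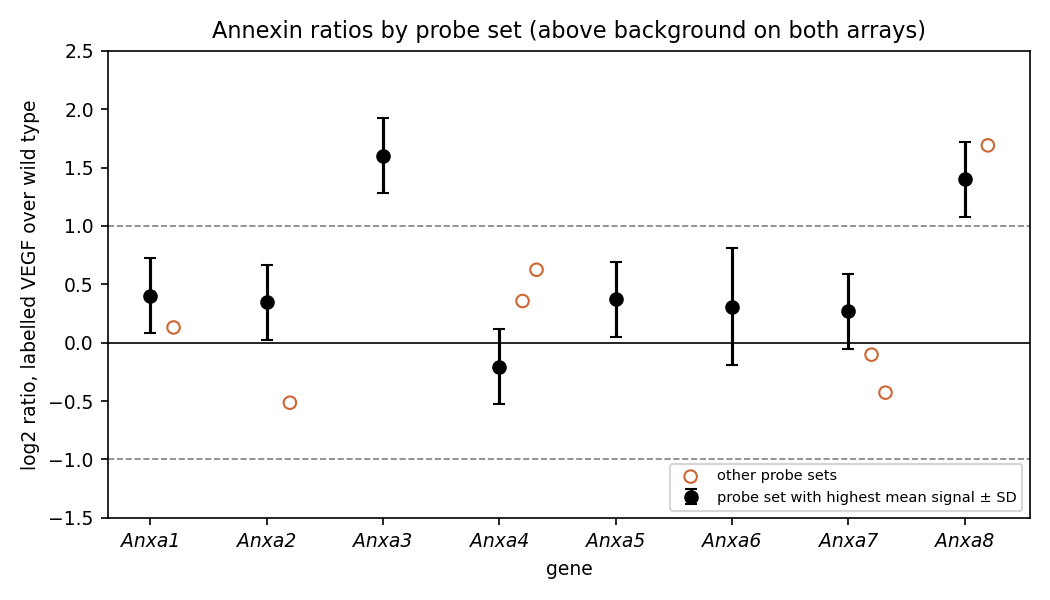
Log2 ratio (array labelled VEGF over wild type) for the 8 annexins above background on both. Filled points are the probe set with the highest mean signal with the SD between probe sets of a gene at that signal, open circles are other probe sets, and dashed lines mark 2-fold. Anxa3 and both Anxa8 probe sets lie above 2-fold, and the probe sets of Anxa2, Anxa4 and Anxa7 fall on both sides of 0.

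By first probe sets, 7 of the 8 annexins had a log2 ratio above 0 and 1 had a ratio below 0. Anxa2, Anxa6 and Anxa7 changed sign when the median over their probe sets was taken. Anxa4 did so with that median and with arrays rescaled to equal medians. For Anxa6 the median took in a bound of -0.85, which was -0.05 with the wild-type background as floor on both arrays. Over all genes above background on both arrays, 46.8% of 11234 had a ratio above 0. The median log2 ratio of the 8 was 0.36, against -0.04 over those genes. The 6 annexins other than Anxa3 and Anxa8 lay between -0.21 and 0.40.

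Of the 20 annexin probe sets, 15 were above background on both arrays, with 11 ratios above 0 and 4 below. A fold or a bound was available for 16 probe sets, of which 3 were higher and 0 lower by 2-fold or more. Over all such probe sets of the arrays, 3.53% were higher and 10.3% lower by that much. Another probe set above background on both arrays was available for 5 annexins. All such probe sets went the way of the first for 2 of them, Anxa1 and Anxa8, and not for the other 3, Anxa2, Anxa4 and Anxa7.

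**Figure D3:**
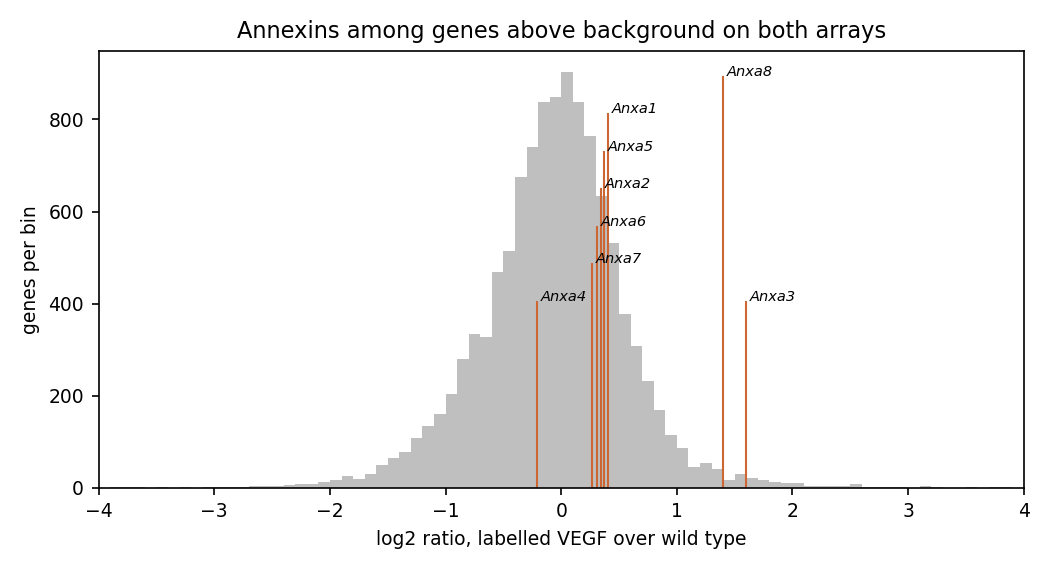
Log2 ratios of 11234 genes above background on both arrays (grey, genes per bin of 0.1), with the 8 annexins as orange lines whose height has no meaning. Anxa3 at 1.60 and Anxa8 at 1.40 stand in the upper tail, and the other 6 lie between -0.21 and 0.40.

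Transcripts of proteins that bind annexins directly were mostly less than 2-fold apart between the arrays. Of 7 listed genes, 6 had a probe set of their own. Of these 6, 1 was higher by 2-fold or more and 0 were lower, and the median log2 ratio was 0.26. S100a11 was not analysed here. S100a10, the partner of Anxa2, read 4495 for wild type and 3804 on the array labelled VEGF by an _x_at probe set, a log2 ratio of -0.24. Its other probe sets, at 0.13 and 0.60, had the opposite sign. S100a6, which binds Anxa11 and other annexins, read 5798 and 6526, a log2 ratio of 0.17. S100a4, a motility-linked relative that can bind Anxa2, read 407 and 2284 and was 5.61-fold higher.

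Sri, which encodes sorcin, the partner of Anxa7, read 467 for wild type and 815 on the array labelled VEGF, a log2 ratio of 0.81, and its other probe set gave 0.58. Pdcd6, a calcium sensor that binds Anxa7 and Anxa11, read 848 and 1078, a log2 ratio of 0.35. Ahnak, a giant scaffold protein held by Anxa2 and S100a10, read 2443 and 2696, a log2 ratio of 0.14, with other probe sets at -0.49 and 0.39.

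The plasminogen system, which Anxa2 and S100a10 help to localise, had 4 genes above background, of which 1 was higher by 2-fold or more and 0 were lower. Their median log2 ratio was 0.52. It was 0.06 with signals raised only to 1 and 0.07 with medians matched and an offset of 50. Both of these settings also count genes below background. Serpinb2, an inhibitor of plasminogen activators, read 724 and 3495 and was 4.83-fold higher. Plaur, the urokinase receptor gene, read 145 and 289, just under 2-fold at a log2 ratio of 0.99; with median-centred ratios 2 genes of the list passed 2-fold. The activator genes Plau and Plat had log2 ratios of 0.06 and -0.60. Plg, which encodes plasminogen and is mainly made by liver, lay below background on both arrays.

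Among receptors of Anxa1 and enzymes of lipid mediators, the 3 genes above background on both arrays had log2 ratios under 1 in size by their first probe sets. Pla2g4a, the cytosolic phospholipase A2 that Anxa1 restrains, read 236 for wild type and 234 on the array labelled VEGF. Ptgs2, the inducible cyclooxygenase gene, read 1879 and 3240 (log2 ratio 0.79), with another probe set at 1.45, and by the median over probe sets 1 gene of the list was higher by 2-fold or more. The formyl peptide receptor gene Fpr2 read 12.9 and 20.2 and the lipoxygenase gene Alox15 read 3.12 and 21.5. Both were below background on the wild-type array, which leaves only bounds, at least 1.02- and 1.09-fold higher. With signals raised only to 1 and no background filter, 1 gene of the list was higher by 2-fold or more. Alox12, another lipoxygenase gene, read 25.2 and 30.1, close to background.

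In the list of plasma membrane repair, where annexins act with ferlins, calpains and the ESCRT machinery, 1 of 9 genes with a fold was higher by 2-fold or more and 0 were lower. The median log2 ratio was 0.08. Myof, which encodes the ferlin myoferlin, read 236 and 544 and was 2.30-fold higher by an _s_at probe set. Without _s_at and _x_at probe sets, 0 genes of the list were at least 2-fold higher. Capn2, a calpain gene, had a log2 ratio of 0.57, Chmp4b, an ESCRT gene, -0.51, and Cav1, of caveolae, 0.08. Dysf and Trim72, repair genes of muscle, lay below background on both arrays.

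Of the glucocorticoid receptor gene and genes induced by glucocorticoids, a class to which Anxa1 belongs, 6 of 7 had ratios below 0. Their median log2 ratio was -0.36, or 0.02 with arrays rescaled to equal medians and an offset. Over all genes above background on both arrays, 46.8% had a ratio above 0 and the median was -0.04. By 2-fold or more, 1 of the 7 was lower and 0 were higher, against 8.53% and 3.87% of all genes. Zbtb16, a transcription factor gene, read 53.7 for wild type and 15.1 on the array labelled VEGF, 3.55-fold lower at low signal. With medians matched and an offset of 50 replacing the floor, with the stricter signal filter or with the median over probe sets, 0 genes of this list were lower by 2-fold or more. Klf9 had a log2 ratio of -0.97, with other probe sets between -1.40 and 0.34. Dusp1, a phosphatase gene that also answers to stress, read 6192 and 3901, a log2 ratio of -0.67. Nr3c1, the glucocorticoid receptor gene, had a log2 ratio of -0.21. Fkbp5, the gene of the list whose first probe set had a ratio above 0, read 149 for wild type and 159 on the array labelled VEGF, a log2 ratio of 0.10.

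**Figure D4:**
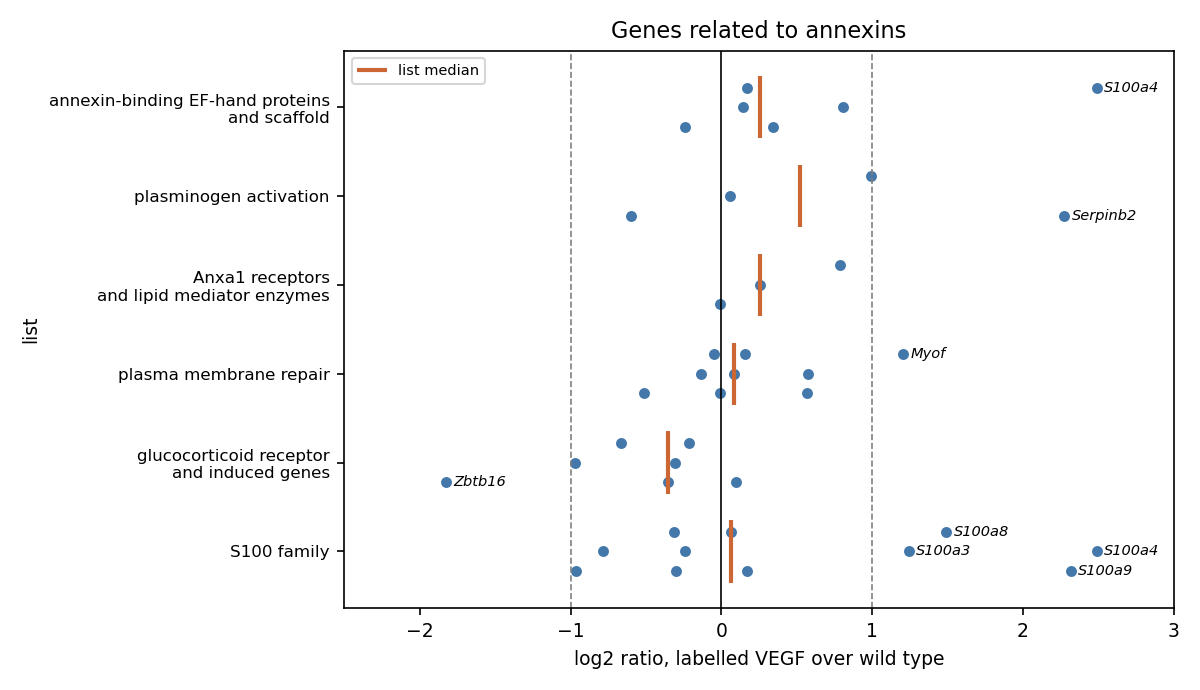
Log2 ratio (array labelled VEGF over wild type) for genes of 6 lists related to annexins (points, genes above background on both arrays), with list medians as orange bars and 2-fold as dashed lines. Genes at least 2-fold apart are named, with S100a4 at 2.49 and Zbtb16 at -1.83 at the ends.

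The S100 family, calcium-binding proteins that include the annexin partners, had log2 ratios from -0.96 to 2.49. Of 12 S100 genes that had a fold or a bound, 4 were higher by 2-fold or more and 0 were lower. Over all genes the shares were 3.87% and 8.53%. The median log2 ratio was 0.06. Besides S100a4, the higher genes were S100a9 (4.98-fold) and S100a8 (2.81-fold, by an _s_at probe set), the subunits of calprotectin, and S100a3 (2.37-fold), a hair cuticle protein gene. By the median over probe sets 2 genes were lower. Without _s_at and _x_at probe sets 3 were higher and 1 lower. With either offset or the stricter signal filter 3 were higher, and with signals raised only to 1 there were 5. The genes not 2-fold apart included S100a14, with 1619 for wild type and 1693 on the array labelled VEGF.

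The pair of signals nearest to that of Anxa3, by Euclidean distance over the 2 arrays on the log2 scale, was that of Anxa8 (distance 0.29), followed by Igfbp3 (0.30) and Rrm1 (0.39). For Anxa4 the nearest were Vezf1 (0.01), Pim1 (0.01) and Plin2 (0.01). With 2 arrays, this likeness reflects the probe sets' brightness and 1 ratio.

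**Figure D5:**
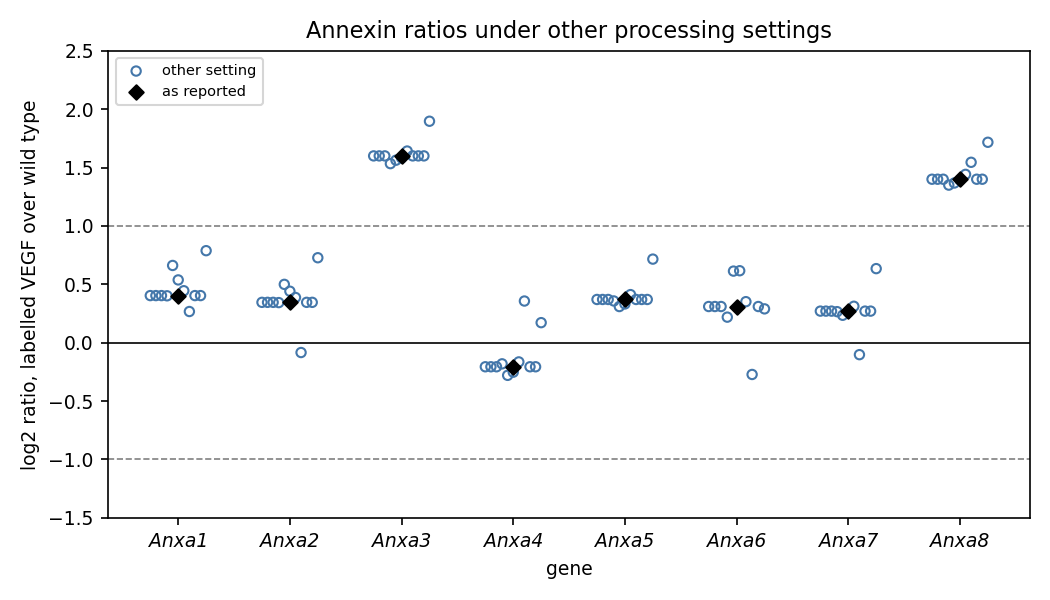
Log2 ratios of the 8 annexins as reported (diamonds) and under the other processing settings (open circles), with dashed lines at 2-fold. Anxa3 (1.53 to 1.90) and Anxa8 (1.35 to 1.72) stay above 2-fold throughout, and the other 6 stay under it.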

How the data were processed

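The authors deposited log2 signals of 2 arrays, made with MAS5 per the submitters' processing notes; neither version nor scaling target is given there. Per the labels, 100 ng of total RNA was amplified for each array. On the linear scale the 2% trimmed mean was 100.04 for each array. Detection calls were not used here.

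Signals were anti-logged, floored at the background level of each array, and divided (array labelled VEGF over wild type). With 1 array above background a fold is a bound against the floor; with none, or a bound under 1-fold, no fold was given. Each gene was read from its probe set of highest mean log2 signal, called first above. Of 45101 probe sets, 34958 had exactly 1 gene, 932 several and 9211 none. With 1 array per group there is no p-value; genes at least 2-fold apart were counted, and list medians cover genes above background on both arrays. The annexins, the lists of related genes and the promoter motifs were chosen with earlier results of these data known. Genes named from a list were those at least 2-fold apart, the one with the highest mean signal and all direct partners. Others were named for their role or direction, chosen after their values were seen. Ratios were computed with Python 3.11.15, pandas 2.3.3 and statsmodels 0.14.6 and tested on simulated data. The alternatives were 10 planned settings and 1 added after seeing the data.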

Additional observations from a re-analysis of the deposited data

How the results depend on the processing

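Under 10 planned settings and 1 added after the data were seen (both arrays rescaled to equal medians, which raises each ratio by 0.39 on the log2 scale, then an offset of 50), 2 annexins were at least 2-fold higher and 0 lower. The annexin median lay between 0.31 and 0.56 under the planned settings and was 0.72 under the added one; the median of all genes moved from -0.04 to 0.08 with medians matched by a shift and an offset of 50 (the planned setting of matching and offset) and to 0.10 with the added one. Counts over all genes moved more. Genes at least 2-fold higher numbered 1675 with signals raised only to 1, 209 with the planned matching and offset and 309 with the stricter signal filter, against 472. Genes at least 2-fold lower numbered 2770, 151 and 323 under those settings, 624 with a common floor, 596 after quantile and 571 after loess normalization and 75 with the added setting, against 1041. Higher genes made up 43.1% of these with the common floor, 58.1% with the planned matching and offset, 48.9% with the stricter filter and 86.4% with the added setting. The common floor changed only the floor of the array labelled VEGF, from 11.3 to 19.8, and left the higher genes at 472. The cause of the other moves was not tested. By the median over probe sets the log2 ratio was -0.08 for Anxa2, 0.36 for Anxa4, -0.27 for Anxa6 and -0.10 for Anxa7, and Anxa4 was 0.17 with the added setting. The Anxa6 median rests in part on a bound set by the floor. No paired analysis was possible because each genotype had 1 array, and for the same reason no replicate could be left out. Low signal limits Anxa6 and Anxa9, which lie near background.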
